A study of Rattus norvegicus with 9 samples.

Results

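Genes that mark or act on endothelial cells, the cells that line blood vessels, were followed in RNA from the left tibias of rats: Pecam1, Cdh5, Kdr, Flt1, Tek, Angpt2, Emcn, Vwf, Eng and Tie1. They were matched by symbol, and all 10 were found among the 22589 genes listed in the deposited tables. From each group of the study, 3 female Sprague-Dawley rats out of a larger number were selected for sequencing. The rats were bought at 9 weeks of age and operated on after 1 week of feeding. Sham rats kept their ovaries and lost some fat from beside them. In the NE/Ovx group both ovaries were removed and the rats were not trained. The RE/Ovx group had the same ovariectomy and, after 2 weeks of adaptation, 12 weeks of ladder climbing that started in the 13th week, on 5 days a week, with a load that went up to 100% of body weight. The bones were freed of skin, muscle, ligament and tendon, and no removal of marrow was described. Markers of marrow cells were found in each rat, so the libraries are taken to hold bone, marrow and vessel cells together. RNA of skeletal muscle markers was found as well. In such bulk RNA, fewer cells of a type and less RNA per cell cannot be told apart. Library totals ran from 12297992 to 16671533 counts, and the counts of a member ranged from 95 (Angpt2) to 5751 (Vwf).

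Vessels of bone carry blood to the marrow and run beside the cells that form bone. Their endothelial cells sense vascular endothelial growth factor (VEGF) through the receptors encoded by Kdr and Flt1. Tek encodes the receptor Tie2. Its ligand angiopoietin-1, from Angpt1, activates Tie2 and steadies vessels, while angiopoietin-2, from Angpt2, can oppose that signal and is released by endothelial cells whose vessels are being remodelled. Tie1 encodes a related receptor that acts together with Tie2. Pecam1 (CD31) and Cdh5 (VE-cadherin) encode adhesion proteins of the endothelial junction. Eng encodes endoglin, a co-receptor for ligands of the bone morphogenetic protein (BMP) family. Emcn encodes endomucin, a surface sialomucin of capillaries and veins, and high CD31 together with high endomucin marks the type H capillaries near the growth plate. Vwf encodes von Willebrand factor, which is made by endothelial cells and also by megakaryocytes, the platelet-forming cells of the marrow.

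The RefSeq promoter table of the build GRCr8 held an entry for 5 of the 10 genes: Kdr, Flt1, Emcn, Eng and Tie1. The 250 bases before the annotated start of Kdr (chr14:32571813-32572062, plus strand), Flt1 (chr12:12333180-12333429, plus strand) and Tie1 (chr5:137304982-137305231, minus strand) are shown because these encode the receptors whose values are given next. Capitals mark GGAA on either strand (TTCC on the printed strand), the core that ETS transcription factors of endothelial cells bind, and in Flt1 the letters TATAAA.
Kdr: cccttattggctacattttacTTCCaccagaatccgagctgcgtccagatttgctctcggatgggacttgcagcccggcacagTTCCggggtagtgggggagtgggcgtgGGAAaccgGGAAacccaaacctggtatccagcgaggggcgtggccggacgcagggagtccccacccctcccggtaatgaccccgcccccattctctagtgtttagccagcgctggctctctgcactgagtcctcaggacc
Flt1: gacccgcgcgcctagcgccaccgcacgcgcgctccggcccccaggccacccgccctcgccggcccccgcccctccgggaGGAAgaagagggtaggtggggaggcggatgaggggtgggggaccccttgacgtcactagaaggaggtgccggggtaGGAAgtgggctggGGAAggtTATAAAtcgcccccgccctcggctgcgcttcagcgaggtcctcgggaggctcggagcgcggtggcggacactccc
Tie1: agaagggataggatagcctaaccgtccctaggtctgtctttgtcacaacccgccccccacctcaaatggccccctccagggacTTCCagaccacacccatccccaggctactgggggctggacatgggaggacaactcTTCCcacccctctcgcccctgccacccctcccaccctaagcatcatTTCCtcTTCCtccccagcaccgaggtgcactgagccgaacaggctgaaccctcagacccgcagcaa
GGAA occurred 4 times in Kdr, 3 times in Flt1 and 4 times in Tie1, and it was also present in 93.2% of all 33469 promoters of the table (median 3 matches), so it did not set these genes apart. The Emcn promoter held 6 matches and the Eng promoter 3. None of the 5 windows held the longer ETS core CGGAAG, which 13.9% of all promoters held, or the GATA motif AGATAA, which 10.3% held, counting both strands. TATAAA was found at position -75 of Flt1 only, against 12.9% of all promoters. GC content was 73.2% in Flt1, 68% in Eng, 61.6% in Kdr and in Tie1 and 44.4% in Emcn, beside a median of 51.2% over all promoters.

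Per unit of transcript length, on the FPKM scale, Vwf was the most abundant of the 10 genes in the Sham group (42.8 ± 2.18 FPKM, SD, n = 3 rats), and Pecam1 was next (20.6 ± 1.15 FPKM). Tie1 (15.2 FPKM), Eng (13.3), Kdr (11.8) and Tek (10.3) formed the middle of the order, in which the ranges of Tie1 and Eng and those of Eng and Kdr overlapped. Cdh5 (7.23 FPKM) and Emcn (5.71) followed with overlapping ranges, and Flt1 (3.73) and Angpt2 (3.56) had the lowest levels, also with overlapping ranges. All 10 endothelial genes had counts in each rat. In both ovariectomized groups Angpt2 stood eighth, at 6.57 ± 1.09 FPKM in the NE/Ovx group and 7.88 ± 0.357 FPKM in the RE/Ovx group, above Emcn and Flt1 in mean level, although its range overlapped that of Emcn. The ranges of Vwf and Pecam1, which were apart in the Sham group, overlapped in both ovariectomized groups.

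**Figure D1:**
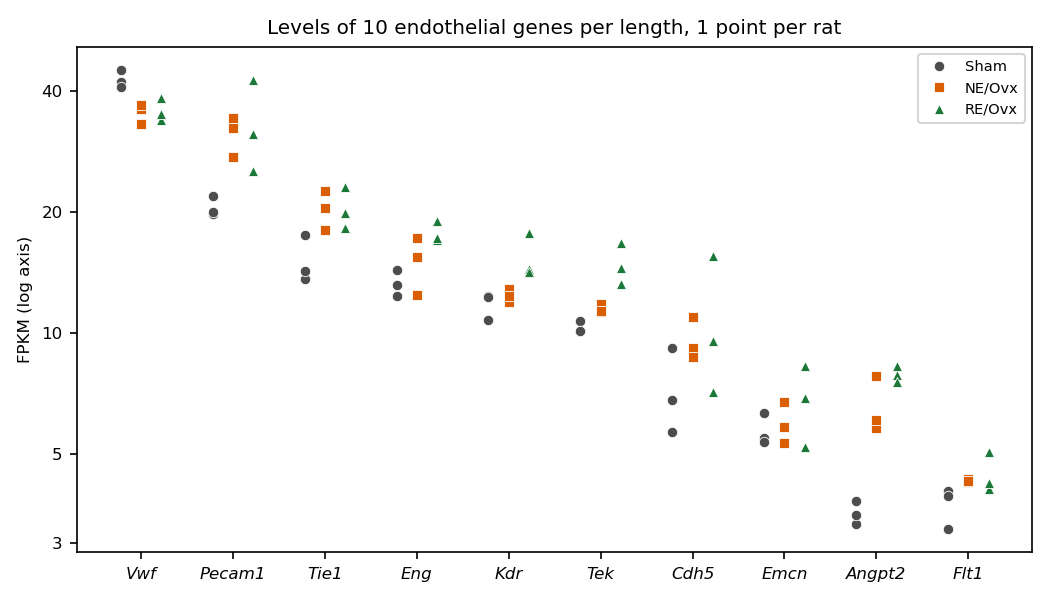
Levels of the 10 genes in FPKM on a log axis, with 1 point for each of 9 rats; circles are Sham, squares NE/Ovx and triangles RE/Ovx. Vwf and Pecam1 had the highest levels, and Angpt2 lay between 3.35 and 3.82 FPKM in the Sham group and between 5.81 and 8.26 in the ovariectomized rats.

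The design poses 3 questions: what ovariectomy changed (NE/Ovx against Sham), what training changed after it (RE/Ovx against NE/Ovx), and how trained ovariectomized rats stood against rats with ovaries (RE/Ovx against Sham). Compared with the Sham group, the NE/Ovx group had a higher level of Angpt2, and this was the 1 gene of the 10 that passed the threshold of an adjusted p under 0.05. Across all 14520 genes tested, 1.23% passed in this comparison and 1.03% passed as higher. In the RE/Ovx group, Angpt2, Tek and Pecam1 rose relative to Sham, 3 of 10 genes beside 8.06% of all genes and 5% called as higher. No member passed for RE/Ovx against NE/Ovx, where edgeR called 0% of all genes, limma also 0 genes and DESeq2 7 genes (0.0381%), and where 767 genes had an unadjusted p under 0.05. The pairs of groups share their rats, so these are not independent results. The p values come from edgeR's quasi-likelihood test with Benjamini-Hochberg adjustment over all tested genes.

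Most of the 10 genes had values above those of the Sham group without reaching the threshold. The log2 fold change was above 0 for 9 of 10 genes in NE/Ovx against Sham (50.4% of all genes), with a median of 0.15 against 0.0029 over all genes. It was above 0 for 8 of 10 in RE/Ovx against NE/Ovx (51.8% of all genes; median 0.14 against 0.0079). Without RE/Ovx rat 8 that median was 0.0087, and Pecam1 (-0.16), Cdh5 (-0.23) and Flt1 (-0.059) turned negative. In RE/Ovx against Sham it was above 0 for 9 of 10 (48.9% of all genes), with a median of 0.36 against -0.0078. Vwf was the exception in each comparison with the Sham group.

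**Figure D2:**
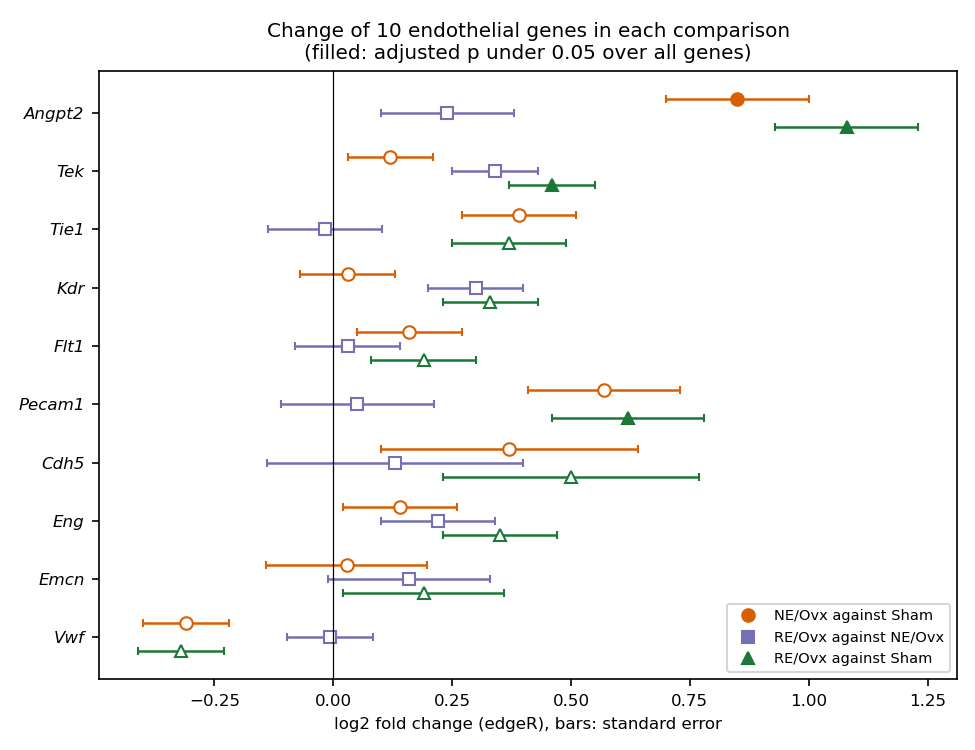
Log2 fold change of each gene in the 3 comparisons (edgeR, bars show the standard error); filled symbols have an adjusted p under 0.05. Angpt2 lies furthest right at 0.85 and 1.08 against Sham, and Vwf lies left of 0 in both comparisons with Sham.

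Angpt2 gave the largest change among the 10 genes in both comparisons with Sham. On the CPM scale, which is the count of a gene scaled to the effective size of its library, its level was 9.01, 7.66 and 8.16 in Sham rats 7, 8 and 12. It was 13.1, 13.6 and 17.9 in NE/Ovx rats 6, 8 and 9, and 17.7, 16.96 and 17.99 in RE/Ovx rats 3, 5 and 8. Each ovariectomized rat was above each Sham rat, and the 3 trained rats lay close together at the upper end of the untrained range. Against Sham the level rose 1.80-fold in untrained ovariectomized rats (log2 fold change 0.85, SE 0.15, adjusted p = 0.0331, edgeR) and 2.12-fold in the RE/Ovx group (1.08, SE 0.15, adjusted p = 0.00882, edgeR). Between the ovariectomized groups the log2 difference was 0.24 (SE 0.14, adjusted p = 0.968, edgeR). The call for NE/Ovx depended on single rats. It was kept without NE/Ovx rat 6 or RE/Ovx rat 3 and lost without any other 1 rat. Over all 9 of these edgeR fits the adjusted p ran from 0.0336 to 0.0983. The call was also lost when edgeR was fitted to NE/Ovx and Sham alone (adjusted p = 0.0668). The call for RE/Ovx was kept without any 1 of the 9 rats (adjusted p 0.00735 to 0.0407).

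Angpt1, whose product competes with angiopoietin-2 for Tie2, had values in the opposite direction relative to Sham. It measured 127.6, 113.2 and 98.9 CPM in Sham rats 7, 8 and 12, 87.2, 81.7 and 90.3 CPM in NE/Ovx rats 6, 8 and 9, and 95.9, 82.0 and 88.7 CPM in RE/Ovx rats 3, 5 and 8. No ovariectomized rat reached the lowest Sham value, but neither difference passed the threshold (log2 fold change -0.39, SE 0.11, adjusted p = 0.0921 for NE/Ovx; -0.35, SE 0.11, adjusted p = 0.0716 for RE/Ovx; edgeR). The ratio of Angpt2 to Angpt1 in FPKM was 0.344 ± 0.037 in the Sham group, 0.804 ± 0.114 in the NE/Ovx group and 0.927 ± 0.0556 in the RE/Ovx group (SD, n = 3 each). The ratios of the ovariectomized rats (0.706 to 0.968) did not overlap those of the Sham rats (0.316 to 0.386). In an exact two-sided permutation test each comparison with Sham gave p = 0.1, the smallest value 3 against 3 rats allow. It was 0.15 after adjustment over 6 ratio tests. Each ovariectomized rat was above the Sham rats in Angpt2 and below them in Angpt1. The separation of the ratio and this p therefore follow from the single genes and add no evidence to them. RE/Ovx against NE/Ovx gave an exact p = 0.2.

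Tek was higher in the trained rats. The receptor measured 53.1, 48.5 and 49.3 CPM in Sham rats 7, 8 and 12 and 56.0, 53.1 and 54.7 CPM in NE/Ovx rats 6, 8 and 9, so that these groups met at 53.1. In RE/Ovx rats 3, 5 and 8 it measured 62.5, 68.5 and 76.7 CPM, above each of the other 6 rats. Relative to Sham, Tek rose 1.38-fold in the RE/Ovx group (log2 fold change 0.46, SE 0.09, adjusted p = 0.0211, edgeR), and this call was lost without RE/Ovx rat 5 or rat 8 (adjusted p up to 0.0844) and with edgeR on those 2 groups alone (adjusted p = 0.0501). Between trained and untrained ovariectomized rats the difference was 0.34 on the log2 scale (SE 0.09), with an unadjusted p of 0.00401 and an adjusted p of 0.921 (edgeR), so it did not pass.

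Tie1 measured 55.1, 68.9 and 57.0 CPM in Sham rats 7, 8 and 12, 87.5, 78.5 and 70.9 CPM in NE/Ovx rats 6, 8 and 9 and 70.6, 76.8 and 86.5 CPM in RE/Ovx rats 3, 5 and 8. All 6 ovariectomized rats were above the Sham range, and trained and untrained rats covered the same span. The log2 differences from Sham were 0.39 (SE 0.12, adjusted p = 0.123) and 0.37 (SE 0.12, adjusted p = 0.0903, edgeR), and neither passed.

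**Figure D3:**
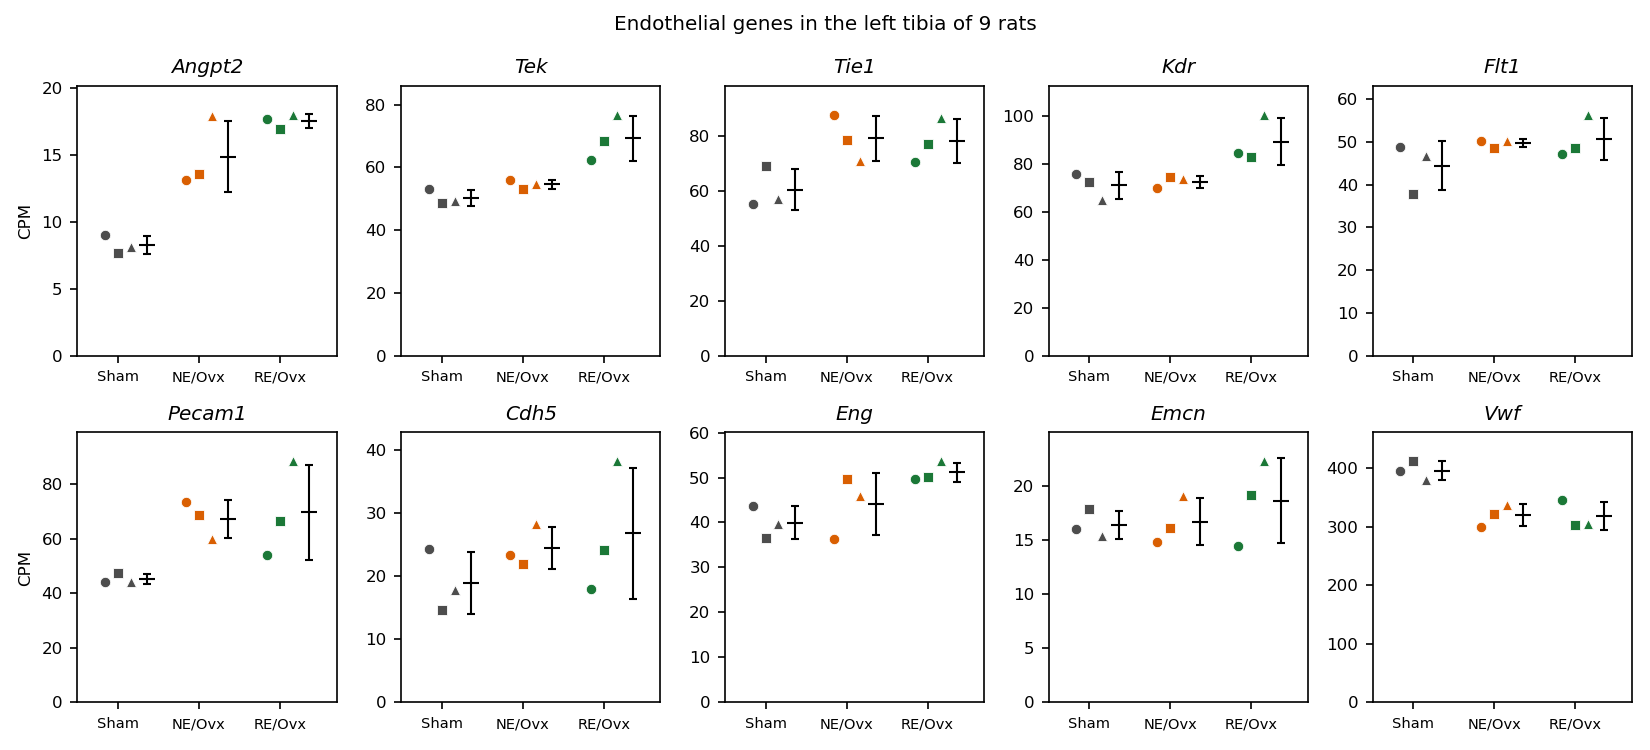
CPM of each of the 10 genes, 1 point per rat (circle, square and triangle in the order of rat numbers within a group), with the group mean and SD (n = 3) beside the points. Angpt2 separates all ovariectomized from all Sham rats, Tek and Kdr separate the RE/Ovx rats from the other 6, and Vwf is lower in the ovariectomized rats.

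Among the VEGF receptors, Kdr, which encodes the main signalling receptor VEGFR2, had overlapping values in Sham rats 7, 8 and 12 (75.8, 72.6 and 65.0 CPM) and NE/Ovx rats 6, 8 and 9 (69.8, 74.5 and 73.5 CPM). RE/Ovx rats 3, 5 and 8 measured 84.6, 82.9 and 100.4 CPM, above the range of both other groups. The log2 difference was 0.03 for NE/Ovx against Sham (SE 0.10, adjusted p = 0.893), 0.30 for RE/Ovx against NE/Ovx (SE 0.10, unadjusted p = 0.0126, adjusted p = 0.921) and 0.33 for RE/Ovx against Sham (SE 0.10, adjusted p = 0.0693, edgeR). Kdr therefore missed the threshold in each comparison, although for RE/Ovx against Sham DESeq2 gave an adjusted p of 0.0447 and scaling by library totals an adjusted p of 0.0499 with edgeR. Flt1, whose product VEGFR1 binds VEGF tightly and limits its action on VEGFR2, measured 48.7, 37.9 and 46.6 CPM in Sham rats 7, 8 and 12 and between 47.2 and 56.3 CPM in the other 6 rats. Its log2 differences from Sham were 0.16 (SE 0.11) and 0.19 (SE 0.11), and neither passed. Kdr and Tek were the 2 members, out of 10, with groups that did not overlap for RE/Ovx against NE/Ovx, beside 11.6% of all genes and 4.75% in the higher direction. These were also the members with an unadjusted p under 0.05 in that comparison, which 5.28% of all genes reached.

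Of Pecam1, Cdh5, Eng and Emcn, the junction and surface genes among the 10, Pecam1 differed most from Sham. It measured 44.2, 47.4 and 44.2 CPM in Sham rats 7, 8 and 12, 73.4, 68.8 and 59.8 CPM in NE/Ovx rats 6, 8 and 9 and 54.1, 66.6 and 88.3 CPM in RE/Ovx rats 3, 5 and 8. All 6 ovariectomized rats exceeded the Sham range, and the RE/Ovx rats spread most (SD 17.3 CPM beside 1.85 in the Sham group). Pecam1 rose 1.54-fold in the RE/Ovx group (log2 fold change 0.62, SE 0.16, adjusted p = 0.0427, edgeR). The difference for NE/Ovx was of similar size but did not pass (0.57, SE 0.16, adjusted p = 0.0993, edgeR). The RE/Ovx call was kept without NE/Ovx rat 9 or RE/Ovx rat 3 only and lost without any other 1 rat (adjusted p up to 0.134), and it was lost with limma on FPKM (adjusted p = 0.0535) and with edgeR on the 2 groups (adjusted p = 0.0704). The NE/Ovx difference passed with DESeq2 (adjusted p = 0.0288) and without RE/Ovx rat 3 (adjusted p = 0.0461).

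Cdh5, the other junction gene, had groups that overlapped. Its levels were 24.3, 14.6 and 17.8 CPM in Sham rats 7, 8 and 12, 23.4, 21.9 and 28.2 CPM in NE/Ovx rats 6, 8 and 9 and 18.0, 24.1 and 38.2 CPM in RE/Ovx rats 3, 5 and 8. The log2 differences from Sham of 0.37 (SE 0.27, adjusted p = 0.47) and 0.50 (SE 0.27, adjusted p = 0.281, edgeR) did not pass the threshold. Without RE/Ovx rat 8, which had the highest Cdh5 level, the difference between RE/Ovx and NE/Ovx turned from 0.13 to -0.23.

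Eng measured 43.7, 36.5 and 39.7 CPM in Sham rats 7, 8 and 12, 36.4, 49.7 and 46.0 CPM in NE/Ovx rats 6, 8 and 9 and 49.7, 50.2 and 53.6 CPM in RE/Ovx rats 3, 5 and 8. The trained rats were above the Sham range, while the untrained rats crossed it. The difference of 0.35 on the log2 scale between RE/Ovx and Sham did not pass (SE 0.12, adjusted p = 0.105, edgeR). Emcn measured 15.3 to 17.8 CPM in Sham rats, 14.8 to 19.0 in NE/Ovx rats and 14.5 to 22.2 in RE/Ovx rats. Its groups overlapped fully, with log2 differences from Sham of 0.028 (SE 0.17) and 0.19 (SE 0.17). The type H pair Pecam1 and Emcn therefore gave unlike values against Sham, but the difference between their changes was not tested.

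Vwf was the 1 gene of the 10 with lower values after ovariectomy. It measured 395.4, 411.0 and 379.4 CPM in Sham rats 7, 8 and 12, 299.0, 321.4 and 337.0 CPM in NE/Ovx rats 6, 8 and 9 and 345.2, 303.1 and 304.5 CPM in RE/Ovx rats 3, 5 and 8. No ovariectomized rat reached the lowest Sham value. The log2 differences of -0.31 for NE/Ovx (SE 0.09, adjusted p = 0.11) and -0.32 for RE/Ovx (SE 0.09, adjusted p = 0.0606) did not pass with edgeR, while DESeq2 called both (adjusted p = 0.0216 and 0.0112), and edgeR called the RE/Ovx difference without RE/Ovx rat 3 (adjusted p = 0.0356). The ratio of Vwf to Pecam1 in FPKM was 2.08 ± 0.0438 in the Sham group, 1.14 ± 0.188 in the NE/Ovx group and 1.14 ± 0.353 in the RE/Ovx group (SD, n = 3). The exact two-sided permutation p was 0.1 for each comparison with Sham and 0.9 between the ovariectomized groups (0.15 and 0.9 after adjustment over 6 tests). Vwf was lower and Pecam1 higher in each ovariectomized rat than in each Sham rat. The separation of this ratio from Sham and its p were thus fixed by the single genes and add no evidence to them.

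Megakaryocyte markers moved with Vwf. The 12 markers summed to 1178 to 1733 CPM in Sham rats, 967 to 1144 in NE/Ovx rats and 1008 to 1196 in RE/Ovx rats. All 11 that could be tested were lower in NE/Ovx than in Sham rats, with a median log2 difference of -0.52 and no call, and Gp1bb was listed at 0 in each rat. For RE/Ovx against Sham the median was -0.40, and Itga2b, Itgb3, Gp6 and Treml1 fell, 4 of 11 genes beside 3.06% of all genes. Itga2b, the platelet integrin chain, measured 345.1 to 377 CPM in Sham rats and 242.4 to 299 in the 6 ovariectomized rats, a log2 difference of -0.41 for RE/Ovx (SE 0.11, adjusted p = 0.0437, edgeR). Without RE/Ovx rat 5 or rat 8 none of these 4 calls was kept (adjusted p up to 0.165). The part of these cells in the Vwf difference was not tested.

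**Figure D4:**
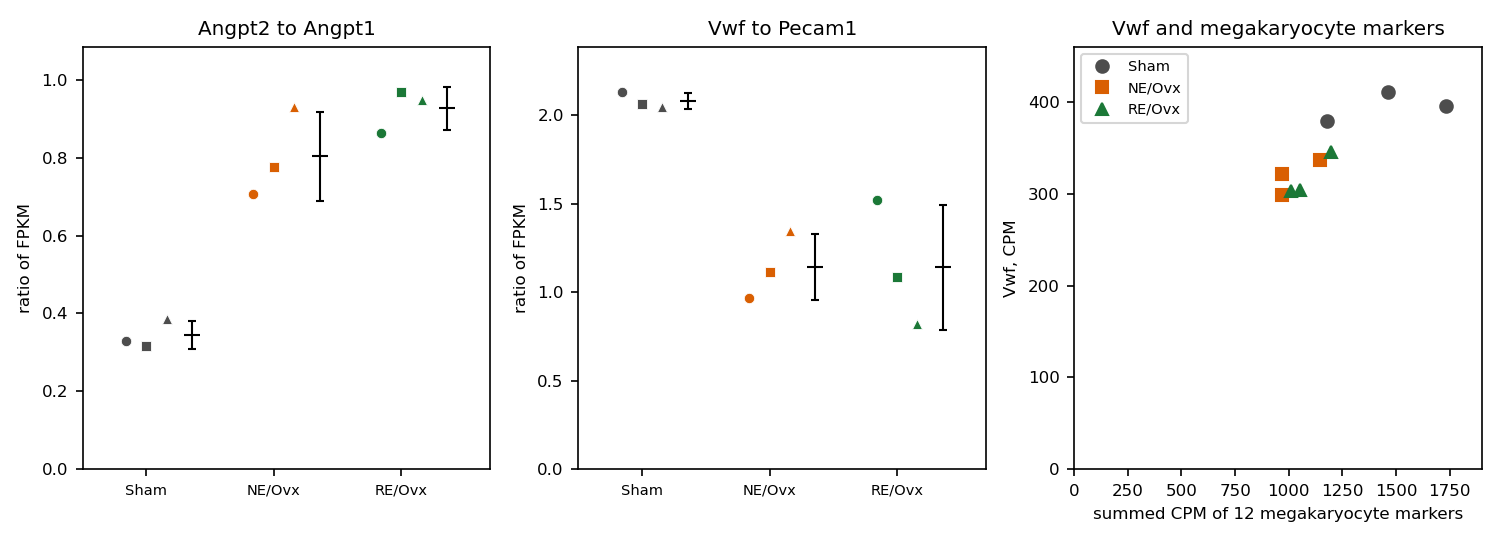
Ratio of Angpt2 to Angpt1 and of Vwf to Pecam1 in FPKM for each rat, with group mean and SD (n = 3), and Vwf in CPM against the summed CPM of 12 megakaryocyte markers. The first ratio is higher and the second lower in all ovariectomized rats. The Sham rats had 1178 to 1733 CPM of marker RNA and Vwf above 379 CPM. The ovariectomized rats had 967 to 1196 CPM of marker RNA and 299.0 to 345.2 CPM of Vwf.

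Counting groups that do not overlap, 4 of the 10 genes separated NE/Ovx from Sham (Pecam1, Angpt2 and Tie1 higher, Vwf lower) beside 25.3% of all genes, with 13.9% higher and 11.4% lower. For RE/Ovx against Sham 7 of 10 were separate (Pecam1, Kdr, Tek, Angpt2, Eng and Tie1 higher, Vwf lower) beside 27.8% of all genes, with 14.9% higher and 13% lower. DESeq2 called Pecam1, Angpt2 and Vwf for NE/Ovx against Sham (3 of 10, 5.39% of all genes) and Pecam1, Kdr, Tek, Angpt2 and Vwf for RE/Ovx against Sham (5 of 10, 10.5% of all genes). Limma on FPKM called Angpt2 alone (0.771% of all genes) and Tek with Angpt2 (6.18% of all genes) in these comparisons. Angpt2 was the gene that all 3 tools called in both.

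As a description of how the genes moved together, the log2 CPM of each gene was centred on its mean over the 9 rats and averaged over the 10 genes. The average was -0.12, -0.24 and -0.24 in Sham rats 7, 8 and 12, -0.01, 0.02 and 0.09 in NE/Ovx rats 6, 8 and 9 and 0.01, 0.13 and 0.36 in RE/Ovx rats 3, 5 and 8. RE/Ovx rat 8 had the highest average, and in it Pecam1, Kdr, Tek, Angpt2, Cdh5, Emcn, Flt1 and Eng were each at their highest of the 9 rats. Across the 9 rats Pecam1 followed Tie1 (r = 0.93), Kdr followed Tek (r = 0.91) and Cdh5 followed Flt1 (r = 0.90), while Vwf ran against Pecam1 (r = -0.91). The genes nearest to the average among 12971 genes searched were Fbn1 (r = 0.99), Camk2n1 (0.98), Pxdn, Ldb2 and Ptprb (0.97 each). Nearest to Pecam1 was Bbs2 (r = 0.98), nearest to Tek was Pm20d1 (0.95) and nearest to Angpt2 was Acvr1c (0.98). These correlations include the differences between groups, share the same libraries and are given without a test.

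Other genes of the same pathways were counted in lists. Of 7 partners of the angiopoietins, none passed for NE/Ovx against Sham and 2 rose for RE/Ovx against Sham, where 5% of all genes rose. These were Ptprb, the phosphatase VE-PTP that acts on Tie2 (111 ± 9.66 CPM in Sham, 153 ± 7.53 in NE/Ovx, and a log2 fold change of 0.54, SE 0.13, adjusted p = 0.0369 for RE/Ovx), and Svep1, a large matrix protein that binds Tie1 (1.02, SE 0.21, adjusted p = 0.0209, edgeR). Of 8 VEGF ligands and other receptors, Nrp2, a co-receptor for VEGF, rose for RE/Ovx against Sham (0.63, SE 0.13, adjusted p = 0.0209, edgeR). Vegfa itself measured 70.7 to 105.1 CPM in Sham rats and 74.6 to 106.5 in the others, with log2 differences from Sham of 0.10 and 0.043 (SE 0.16 each). The ligand genes of this list thus held no call, and Pgf, placental growth factor, came nearest with 2.85 CPM in Sham and 5.90 in NE/Ovx rats (adjusted p = 0.0668, edgeR).

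Of 13 genes of endoglin and BMP9 signalling, 11 could be tested, and Gdf2, which encodes BMP9 itself, was listed at 0 in each rat. Smad1, which carries the signal of BMP receptors to the nucleus, rose in both ovariectomized groups. It measured 29.6, 35.9 and 27.7 CPM in Sham rats 7, 8 and 12 and 45.6 to 53.8 CPM in the 6 ovariectomized rats (log2 fold change 0.73, SE 0.11, adjusted p = 0.0239 for NE/Ovx; 0.67, SE 0.11, adjusted p = 0.0139 for RE/Ovx; edgeR). Its targets Id3 (0.70, adjusted p = 0.0154) and Smad6 (1.01, adjusted p = 0.0143, edgeR) also rose in the RE/Ovx group, where the list had 3 calls of 11, beside 5% of all genes called as higher. Id1, another target of these Smads, had values in the opposite direction, 28.7 to 34.1 CPM in Sham rats and 19.8 to 24.1 in RE/Ovx rats, without passing (-0.50, SE 0.17, adjusted p = 0.104, edgeR). For NE/Ovx the values of Id3 and Smad6 were 0.61 (adjusted p = 0.0502) and 0.81 (adjusted p = 0.0572, edgeR), just outside the threshold.

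In a list of 20 further junction and surface genes, 19 were tested and Mcam (CD146), an adhesion protein of endothelial cells and pericytes, was the 1 that passed. It rose from 15.7 ± 3.03 CPM in Sham to 33.2 ± 2.98 in NE/Ovx and 39.7 in RE/Ovx rats (log2 fold change 1.08, SE 0.19, adjusted p = 0.0331; 1.34, SE 0.19, adjusted p = 0.00972; edgeR). Of 13 endothelial transcription factors, Foxo1 rose in both ovariectomized groups (1.01, adjusted p = 0.0403; 1.04, adjusted p = 0.0172, edgeR). Erg, a factor of the ETS family, measured 48.9 ± 2.12 CPM in Sham and 48.8 ± 4.24 in NE/Ovx rats, and 39.8, 39.4 and 49.2 CPM in RE/Ovx rats 3, 5 and 8 (-0.19 against either group, with adjusted p = 0.315 against Sham and 0.968 against NE/Ovx, edgeR). Tal1, also a factor of red cell precursors, had a log2 difference of -0.62 for NE/Ovx against Sham (adjusted p = 0.069, edgeR). The median of these lists was 0.28 and 0.23 for NE/Ovx and 0.43 and 0.22 for RE/Ovx against Sham. Each list had 1 call in each of these comparisons, Mcam of 19 and Foxo1 of 13 genes. Of all genes, 1.03% were called as higher for NE/Ovx and 5% for RE/Ovx. For RE/Ovx these counts were thus near the share of all genes.

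Of 16 Notch, arterial and venous genes, the RE/Ovx group had a higher level of Ephb4, the ephrin receptor of veins (log2 fold change 0.44, SE 0.10, adjusted p = 0.0331, edgeR), and a lower level of Bmx, a kinase of arterial endothelium and of marrow cells. Bmx fell by 0.93 on the log2 scale (SE 0.14, adjusted p = 0.0113, edgeR), from 46.8 to 53.0 CPM in Sham rats to 20.3 to 30.6 CPM in RE/Ovx rats. Among 11 genes of sinusoids, venules and leukocyte adhesion, Fabp4, a fatty acid carrier of capillaries and of adipocytes, rose (1.58, SE 0.34, adjusted p = 0.0245) and Lrg1, which endothelial cells and neutrophils make, fell by 0.75 (SE 0.14, adjusted p = 0.0175, edgeR). Fabp4 is also in the adipocyte list below, which moved with it. Neither list had a call for NE/Ovx against Sham. In the trained group, each of these lists had 1 gene called as higher and 1 as lower. Of all genes, 5% were higher and 3.06% lower in that group than in Sham. A single call in lists of 16 and 11 genes does not set them apart from these shares. Of 12 pericyte and smooth muscle genes, none passed for NE/Ovx. Relative to Sham, Cspg4 (NG2, 1.05, adjusted p = 0.0198) and Notch3 (0.71, adjusted p = 0.0277, edgeR), both of pericytes, rose in the RE/Ovx group. These were 2 of 12 genes, beside 5% of all genes called as higher.

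Basement membrane genes gave the highest counts among the vessel lists. For NE/Ovx against Sham 6 of 11 rose (Col4a1, Col4a2, Lama4, Lamc1, Col18a1 and Sparc) with a list median of 0.73, beside 1.03% of all genes that rose. For RE/Ovx 9 of 11 rose with a median of 0.98, beside 5% of all genes, the other 2 being Lama5 (0.45, adjusted p = 0.219) and Nid2 (1.0, adjusted p = 0.0536, edgeR). Col4a1, a chain of collagen IV, measured 78.0, 71.1 and 89.8 CPM in Sham rats 7, 8 and 12, 166.0, 210.2 and 199.8 CPM in NE/Ovx rats 6, 8 and 9 and 137.7, 231.7 and 243.4 CPM in RE/Ovx rats 3, 5 and 8. All ovariectomized rats were above the Sham rats, with log2 fold changes of 1.27 (SE 0.20, adjusted p = 0.024) and 1.36 (SE 0.20, adjusted p = 0.0102, edgeR). Lama4, the laminin chain of endothelial basement membranes, rose by 0.73 (SE 0.13, adjusted p = 0.0347) and 0.98 (SE 0.13, adjusted p = 0.0081, edgeR). Collagen IV, laminins and Sparc are also made by adipocytes or bone-forming cells. No gene of any of the 9 lists passed for RE/Ovx against NE/Ovx.

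Many calls in these lists rested on single rats. Of the 9 calls for NE/Ovx against Sham, none was kept in all 9 fits that left out 1 rat, and the basement membrane count went from 6 to 0 without Sham rat 7, Sham rat 12, NE/Ovx rat 8 or NE/Ovx rat 9 and to 9 without RE/Ovx rat 3. Of the 23 calls for RE/Ovx against Sham, those of Mcam, Bmx, Lrg1, Col4a1, Col4a2 and Lama4 were kept in all 9 fits (adjusted p up to 0.0462), and the other 17 were lost without RE/Ovx rat 5 and also without RE/Ovx rat 8. The basement membrane count in this comparison was 3 without either of these rats.

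**Figure D5:**
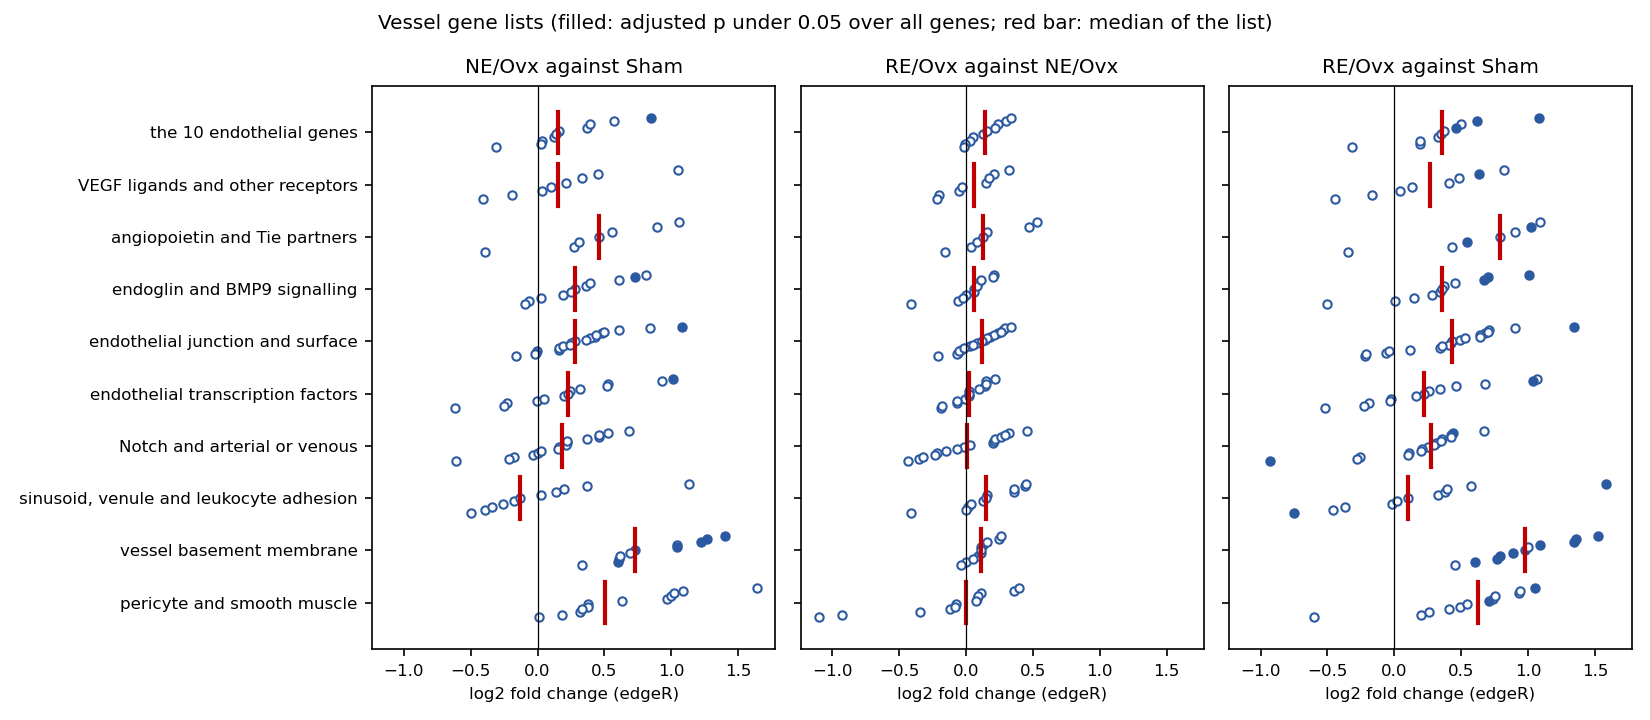
Log2 fold change (edgeR) of each tested gene in the 10-gene set and in 9 further vessel lists for the 3 comparisons, with filled points for an adjusted p under 0.05 and a red bar at the list median. Basement membrane genes lie furthest right against Sham (medians 0.73 and 0.98), and no point is filled for RE/Ovx against NE/Ovx.

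Markers of other cells of the bone also differed between the groups, and their part in the values above was not tested. In the counts that follow, given for NE/Ovx and then for RE/Ovx against Sham, the shares of all genes were 1.03% and 5% higher and 0.2% and 3.06% lower. Adipocyte markers summed to 203 to 313 CPM in Sham rats, 456 to 581 in NE/Ovx rats and 543 to 763 in RE/Ovx rats, and 4 and 9 of 10 rose. Bone markers summed to 6532 to 9202, 15747 to 26203 and 17749 to 27839 CPM, but most of this sum was Col1a1 (5239 to 7466 CPM in Sham and 14462 to 25414 in ovariectomized rats). Col1a1 and Bglap rose in both ovariectomized groups, the other 8 bone markers did not pass, and the list medians were 0.46 and 0.51. B cell markers were at 194 to 582, 699 to 1141 and 854 to 1043 CPM (0 and 3 of 10 rose), and neutrophil markers at 6903 to 11853, 5065 to 5933 and 3755 to 5877 CPM (0 and 5 of 9 fell). Cartilage markers were at 653 to 1332, 1424 to 2288 and 1878 to 2107 CPM (1 and 3 of 8 rose). Skeletal muscle markers were still found, although muscle had been removed, and ranged from 5365 to 16298 CPM in Sham rats. They were lower in RE/Ovx rats (6705 to 10115) than in NE/Ovx rats (14161 to 17910), with a median log2 difference of -0.97. In that comparison 11 of 12 were lower without overlap, beside 6.84% of all genes. None was called, but edgeR called 0% of all genes there. NE/Ovx rat 6 stood apart in interferon response genes, with 2856 CPM beside 843 to 1655 in the other 8 rats. Without it Angpt2 kept its call for NE/Ovx against Sham, with a log2 fold change of 0.93. In the vessel lists, the calls of Col4a1, Col4a2 and Sparc in that comparison were also kept without this rat. Those of Smad1, Mcam, Foxo1, Lama4, Lamc1 and Col18a1 were lost. Monocyte and macrophage markers were at 5074 to 7410, 4304 to 4962 and 3189 to 3746 CPM, sums that were mostly Lyz2 (4244 to 6354, 3403 to 4130 and 2424 to 2915 CPM). Lyz2 and Itgam fell in the RE/Ovx group, the other 8 of 10 did not pass, and the list medians were 0.02 and -0.10. Erythroid markers were at 30722 to 39063, 20966 to 27817 and 15579 to 30604 CPM without a call.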

How the data were processed

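RNA-seq of the left tibias of 9 rats was analysed from values the authors deposited for each rat: a whole-number read count per gene, not normalized, and an FPKM value per gene, which is scaled to gene length and to library depth. In the submitters' notes on processing, Rnor_6.0 is named as the build and Bowtie2, DESeq, HISAT2, StringTie and Trimmomatic as tools, with no version or order. The kit keeps the strand. Whether strand was used in counting was not given in the sources used here, so overlapping genes may share reads.

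Counts were fitted with edgeR 4.0.16 in R 4.3.3 (TMM factors, low counts filtered by filterByExpr, quasi-likelihood test, group as the only term) over all 9 rats and 14520 genes, and p values were adjusted by the Benjamini-Hochberg method over all of them (threshold 0.05). Each library is a separate rat, named by the number in its sample title. Headers inside the files number the replicates of a group from 1 to 3 instead, so each file was tied to its rat by the sample it was deposited under. No pair of libraries in a group held identical values or agreed within sampling noise. CPM uses the effective library size. Ratios were tested with exact permutation in scipy 1.17.1. The 10 genes and the other lists, which hold vessel genes (9 lists) and markers of other cells, were chosen with earlier results of these data known. Named genes were drawn from the 10 members, from those called, and from those with the smallest p in each vessel list. The last were up to 3 for NE/Ovx against Sham and 1 for each other comparison. Several of these that did not pass, such as Cav1, Dll4, Flt4 and Des, are not named in the results above. Angpt1, Vegfa, Erg, Itga2b and the marker genes were named for their roles or after their values were seen. GGAA was added to the motifs after the first search. Alternatives were DESeq2 1.42.0, limma 3.58.1 on log2 FPKM (pseudocount 1, pseudocount 0.1, or only genes reaching an FPKM of 1 in 3 libraries), other scaling, other filters, the 2 groups alone, and leaving out each rat. The scripts were tested on simulated data. The symbols of promoters were matched to RefSeq, GRCr8.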

Additional observations from a re-analysis of the deposited data

How the results depend on the processing

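Angpt2 for RE/Ovx against Sham kept its call in each alternative run. Of the counts of called members, DESeq2 gave 3 for NE/Ovx against Sham and 5 for RE/Ovx against Sham, and edgeR on the 2 groups gave 0 and 1. Over all genes, DESeq2 called 991, 7 and 1927 (NE/Ovx against Sham, RE/Ovx against NE/Ovx, RE/Ovx against Sham), limma on log2(FPKM + 1) called 112 in the first, and edgeR on the 2 groups called 1 in the second and 559 in the third. Leaving out each rat in turn gave 0 to 2, 0 to 0 and 1 to 4 called members and 9 to 458, 0 to 1 and 103 to 1749 called genes, with the fewest members for RE/Ovx against Sham (1) without RE/Ovx rat 5 or rat 8. The members' median log2 fold change ranged from 0.084 to 0.21, from 0.0087 (leaving out RE/Ovx rat 8) to 0.26 (leaving out NE/Ovx rat 9) and from 0.26 to 0.41. Of the 11 basement membrane genes, limma on log2(FPKM + 1) called 3 for NE/Ovx against Sham, and all 11 passed for RE/Ovx against Sham without RE/Ovx rat 3.

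Each direction that turned belonged to a difference of at most 0.13 that had not passed. For RE/Ovx against NE/Ovx, Vwf (-0.0069) became 0.016 with library totals, 7.3e-05 with the 2 groups and 0.015 in the 3 limma fits, and Tie1 (-0.018) became 0.0062 with library totals and 0.0044 to 0.0046 in the limma fits. Without 1 rat, the range was -0.071 to 0.048 for Vwf, -0.11 to 0.062 for Tie1, -0.16 to 0.20 for Pecam1, -0.23 to 0.35 for Cdh5 and -0.059 to 0.078 for Flt1, and for NE/Ovx against Sham -0.048 to 0.064 for Kdr and -0.10 to 0.10 for Emcn. The cause was not tested. No paired analysis was possible because the rat numbers name animals and only the number 8 occurs in all groups. Angpt2 has the fewest counts (95 to 296 per rat), and with 3 rats a group small changes can be missed.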
